A study of Mus musculus with 8 samples.

Results

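The nuclear genes of cytochrome c oxidase (complex IV of the respiratory chain) and of ATP synthase (complex V) were examined in the embryonic mouse cortex, in the presence and absence of the kinase NUAK1. They were taken by symbol, as the rows that start with Cox and a digit or with Atp5 and whose counts sum to 80 or more over the 8 libraries. Of 21165 rows in the count table, 42 had such a symbol and 37 reached the count minimum, 21 Cox genes and 16 Atp5 genes. All 37 were among the 12699 genes kept for testing by filterByExpr, the low-count filter of edgeR. Just inside the minimum lay Cox6b2 with 113 counts and Cox7a1 with 161. Just outside it lay Cox6a2 with 15 counts and the pseudogene Atp5l-ps1 with 5, while Cox8b, Cox8c and Cox7b2 had 0.

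Complex IV passes electrons from cytochrome c to oxygen and pumps protons across the inner mitochondrial membrane. Its catalytic core is encoded in mitochondrial DNA, and the nuclear subunits that surround it come in ubiquitous and tissue-specific isoforms. ATP synthase lets protons flow back through a membrane-embedded ring of c subunits, and the turning of that ring drives ATP formation in the F1 head, which a peripheral stalk holds still. Neurons draw much of their ATP from this machinery, and its genes are a common subject where axons and synapses are studied.

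Cortex was taken at E18.5 (days of gestation) from 4 embryos of a constitutive Nuak1 KO line and from 4 WT embryos, with no treatment. A constitutive loss affects every cell type of the tissue, and these animals die at birth, so only prenatal cortex can be studied. Labels give 2 males and 2 females among KO embryos, 1 male and 3 females among WT embryos, and litters A, C and D, but table columns carry only the genotype and a running number, so neither sex nor litter could be given to a library. Polyadenylated RNA was sequenced, and reads per gene were counted. Library totals lay between 9643711 and 27014858 counts. In what follows, a normalized count is a count divided by the library's TMM-scaled total and multiplied by the mean of those totals. Values after ± are SDs over the 4 libraries of a genotype. The targeted gene Nuak1 averaged 14.2 ± 4.35 normalized counts in KO libraries against 1204 ± 260 in WT libraries, with no overlap. The cortical neuron markers Neurod6, Tbr1, Bcl11b and Emx1 were detected in every library. Library KO R1 stood apart through meningeal fibroblast markers, whose sum over the 5 genes (Col1a1, Col1a2, Col3a1, Dcn, Lum) was 7805 normalized counts there and between 257 and 474 in the other libraries. Over the genes tested, the largest chi-square per degree of freedom between libraries of a genotype was 16.5, for WT R2 and WT R4. It was 12.6 for WT R3 and WT R4, and between 8.78 and 10.9 for KO R1 and the other KO libraries. As these are bulk samples, fewer cells of a type and less RNA per cell cannot be told apart.

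The promoters of 5 members are printed because they belong to the results that follow: Cox7c and Cox7a2 had the largest positive differences between genotypes, Cox5a went the other way, and Cox6b1 and Atp5h show what a match to the motifs searched looks like. Each line holds the 250 bases before the RefSeq start in GRCm38.p6, 5′ to 3′ on the gene's strand, at chr13:86046796-86047045 on the minus strand for Cox7c, chr9:79759854-79760103 on the minus strand for Cox7a2, chr9:57520982-57521231 on the plus strand for Cox5a, chr7:30626115-30626364 on the minus strand for Cox6b1 and chr11:115419920-115420169 on the minus strand for Atp5h. Capitals mark matches to the motifs described next, an ETS match in Cox6b1 and an NRF1 and an ETS match in Atp5h, all on the reverse strand.
Cox7c: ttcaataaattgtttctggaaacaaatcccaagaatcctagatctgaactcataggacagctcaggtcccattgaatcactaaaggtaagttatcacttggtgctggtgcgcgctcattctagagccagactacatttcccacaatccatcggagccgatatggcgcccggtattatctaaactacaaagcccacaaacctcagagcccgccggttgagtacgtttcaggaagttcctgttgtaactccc
Cox7a2: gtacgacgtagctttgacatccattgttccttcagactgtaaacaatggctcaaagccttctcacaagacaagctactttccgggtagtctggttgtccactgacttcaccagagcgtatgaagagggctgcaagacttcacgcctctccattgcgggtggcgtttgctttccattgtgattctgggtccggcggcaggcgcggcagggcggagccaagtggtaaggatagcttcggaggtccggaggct
Cox5a: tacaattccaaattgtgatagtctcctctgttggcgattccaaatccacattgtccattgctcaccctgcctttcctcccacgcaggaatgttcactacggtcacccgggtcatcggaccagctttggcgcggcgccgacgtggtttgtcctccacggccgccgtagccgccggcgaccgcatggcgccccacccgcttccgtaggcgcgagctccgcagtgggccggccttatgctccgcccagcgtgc
Cox6b1: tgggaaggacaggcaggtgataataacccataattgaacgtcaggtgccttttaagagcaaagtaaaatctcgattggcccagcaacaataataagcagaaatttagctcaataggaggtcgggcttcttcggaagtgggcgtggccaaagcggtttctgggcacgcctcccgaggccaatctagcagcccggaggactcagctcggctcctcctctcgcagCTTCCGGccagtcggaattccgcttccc
Atp5h: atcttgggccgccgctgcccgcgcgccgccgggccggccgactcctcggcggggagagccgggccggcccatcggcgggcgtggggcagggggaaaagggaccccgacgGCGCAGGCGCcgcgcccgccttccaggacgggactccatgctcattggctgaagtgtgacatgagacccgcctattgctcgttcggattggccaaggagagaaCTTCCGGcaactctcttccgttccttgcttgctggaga

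Motifs of 3 factors known from respiratory chain promoters were searched on both strands of windows from 250 bases before to 50 bases after the start. They were the NRF1 motif (GCGC, any base, then TGCGC), the ETS motif CCGGAAG and the YY1 motif AANATGGC, of which the ETS and YY1 motifs can share letters but had no overlapping matches in a member. Windows were found for 30 of the 37 members, and none for Atp5a1, Cox4i1, Cox4i2, Cox4nb, Cox6c, Cox17 and Cox18. The NRF1 motif lay in 6 of the 30 (20.0%), against 5.19% of all 27025 genes with a window. It was found in 5 of 15 Atp5 genes (Atp5c1, Atp5g2, Atp5g3, Atp5h and Atp5k) and in 1 of 15 Cox genes, Cox6a1. The ETS motif lay in 10 of the 30 (33.3%, against 9.93% of all genes), 5 from each family, and the YY1 motif in 7 (23.3%, against 6.96%). At least 1 of the 3 motifs was present in 12 of 15 Atp5 promoters and in 6 of 15 Cox promoters, against 19.4% of all genes. Cox7c, Cox7a2 and Cox5a held none of these letters in the window. A match describes the sequence only.

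Levels per kb of transcript used the median length of a gene's coding transcripts. They were higher for subunits than for assembly factors and tissue isoforms, while the ranges of the subunit groups overlapped. Near-identical copies cover 87.8% of the Cox5b transcript and 50.1% of the transcript of Atp5f1, a peripheral stalk gene, so these levels are uncertain. In WT the 10 ubiquitous complex IV subunits lay between 2239.5 normalized counts per kb (Cox7b) and 8195 (Cox6b1). The F1 head ranged from 2379 (Atp5d, the delta subunit) to 12709 (Atp5b, the catalytic beta subunit), the highest level of all members. Peripheral stalk, c ring and membrane subunits lay between 2258 (Atp5g1) and 5124.5 (Atp5g3). The assembly factors were lower, from 62.2 for Cox10, which farnesylates the heme of the enzyme, to 717 for Cox17, a copper chaperone. The tissue isoforms were lowest, at 59.4 for Cox7a1, 36.2 for Cox4i2 and 31.2 for Cox6b2. Muscle markers, relevant to Cox7a1, were low too, with a sum over 5 genes of at most 53.8 normalized counts in KO and 64.2 in WT.

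**Figure D1:**
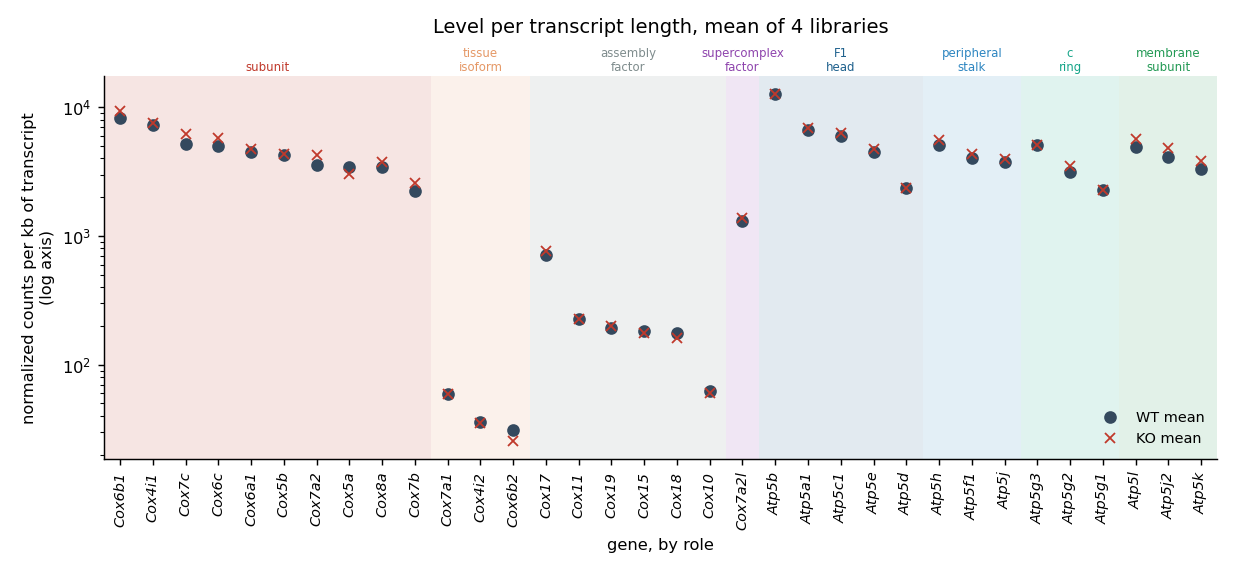
Mean normalized counts per kb of transcript (log axis) for 34 members, ordered by role, with WT means as filled circles and KO means as crosses (4 libraries each). Subunits sit above 1000 per kb and the tissue isoforms below 100, and Atp5b is the highest in both genotypes.

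The shares of isoforms in the RNA overlapped between KO and WT, and protein was not measured. Per transcript length, Cox4i2, which replaces Cox4i1 in lung and under low oxygen, made up 0.456 ± 0.0999% of the Cox4 pair in KO and 0.489 ± 0.137% in WT. Cox7a1, the heart and skeletal muscle form of Cox7a2, made up 1.38 ± 0.514% of its pair in KO and 1.59 ± 0.589% in WT. For Cox6b2, known from testis, the share was 0.269 ± 0.146% in KO and 0.363 ± 0.190% in WT. All 3 shares overlapped between genotypes. The c ring is built from the same mature protein encoded by 3 genes, and Atp5g1, Atp5g2 and Atp5g3 gave 21.2 ± 1.55%, 32.3 ± 1.57% and 46.5 ± 0.740% of the per-length level in KO, against 21.4 ± 0.684%, 30.1 ± 1.96% and 48.5 ± 1.32% in WT. The Atp5g3 share was 45.7% to 47.5% in KO and 47.5% to 50.3% in WT, so the ranges met at their ends. All of the Atp5g2 transcript has near-identical copies elsewhere in the genome, which makes its counts uncertain.

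None of the 37 members passed an adjusted p of 0.05 (quasi-likelihood test of edgeR, Benjamini-Hochberg adjustment over all genes tested), where 0.0709% of all genes did. The lowest adjusted p among the members was 0.551, for Cox7c. DESeq2 gave 0 members past an adjusted p of 0.05 as well. At an unadjusted p under 0.05, 6 of 37 members were higher in KO, 4 of 21 Cox genes and 2 of 16 Atp5 genes, against 4.51% of all genes, and 0 were lower, against 3.18%. With a log2 fold change over 0.25 required in addition, 2 members were left, Cox7c and Cox7a2, against 2.45% of all genes. Point estimates were above 0 for 24 members, 12 of 21 Cox genes and 12 of 16 Atp5 genes, against 45.6% of all genes tested. The median log2 fold change was 0.05 for the Cox genes, 0.09 for the Atp5 genes and -0.01 over all genes tested. No member had every KO library above every WT library or every KO library below, where 2.64% and 1.85% of all genes did.

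**Figure D2:**
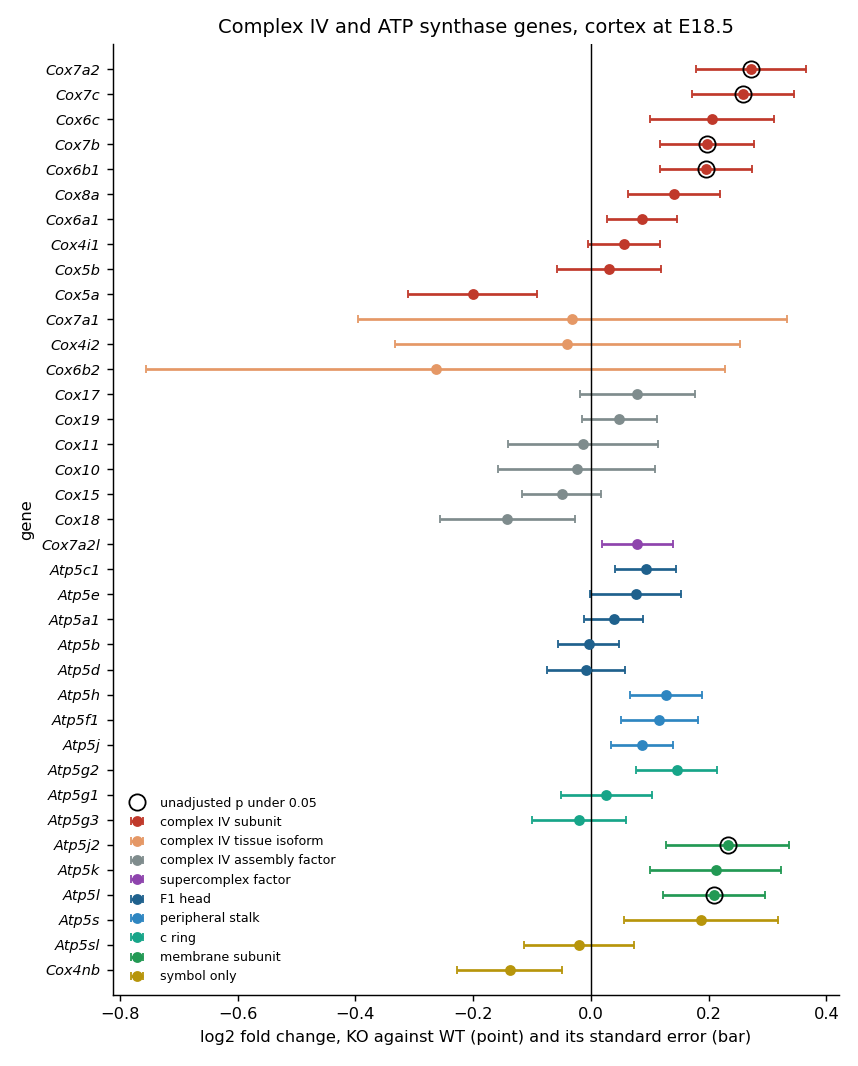
Log2 fold change of KO against WT for the 37 members (points, coloured by role) with standard errors (bars), from edgeR on 4 libraries per genotype. Circled genes have an unadjusted p under 0.05, and all 6 of them lie to the right of 0, while Cox5a is the 1 ubiquitous subunit to the left.

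The 10 ubiquitous subunits of complex IV showed a median log2 fold change of 0.17, 9 of them with an estimate above 0. Cox7c, a small membrane subunit on chromosome 13 (86184421 to 86186509 in NCBIM37), had 3293, 2617, 3241 and 2938 normalized counts in KO libraries R1 to R4 and 2597, 2500.1, 2216 and 2806 in WT libraries R1 to R4. KO libraries R1, R3 and R4 lay above every WT library, and KO R2 fell below WT R4. The log2 fold change was 0.26 (standard error 0.09, unadjusted p = 0.0122, adjusted p = 0.551 from edgeR). Of its longest transcript, 32.9% matches other places in the genome at 98% identity or more, so reads may have been lost or shared there.

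Cox7a2, the ubiquitous form of subunit VIIa on chromosome 9 (79603048 to 79607660), had 3699, 2901, 3331 and 3003 normalized counts in KO R1 to R4 and 2627, 2632, 2364 and 3105 in WT R1 to R4. KO R1 and R3 were above all WT libraries, WT R4 was above KO R2 and R4, and the other WT libraries were below every KO library. Its log2 fold change was 0.27 (standard error 0.09, unadjusted p = 0.0143, adjusted p = 0.554 from edgeR). Without KO R1 it was 0.21 and without WT R4 it was 0.35.

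Cox6b1, an intermembrane-space subunit at the dimer interface on chromosome 7 (31401993 to 31411170), had 4906, 4500.4, 5050.4 and 4482 normalized counts in KO R1 to R4 and 4127, 3973, 3683 and 4772 in WT R1 to R4. The log2 fold change was 0.20 (standard error 0.08, unadjusted p = 0.0294, adjusted p = 0.629 from edgeR). Cox7b, a small subunit encoded on chromosome X (103211039 to 103217789), had 2647, 2370.3, 2712 and 2533 in KO R1 to R4 and 2182, 2223, 1962 and 2599 in WT R1 to R4. Both genes repeated the order seen for Cox7a2, with WT R1, R2 and R3 below all KO libraries and WT R4 among them. For Cox7b the log2 fold change was 0.20 (standard error 0.08, unadjusted p = 0.0319, adjusted p = 0.630 from edgeR). The other subunits with estimates above 0 were Cox6c (0.21), Cox8a (0.14), Cox6a1 (0.09), Cox4i1 (0.06) and Cox5b (0.03) on the log2 scale, none with an unadjusted p under 0.05.

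Cox5a, a matrix-facing subunit on chromosome 9 (57369039 to 57380231), was singled out after its values were seen. It had 2327, 2021, 2017 and 1929 normalized counts in KO R1 to R4 and 2085, 2102, 2362 and 3001 in WT R1 to R4. WT R4 was highest and KO R1 lay between the WT libraries, so the genotypes overlapped. The log2 fold change was -0.20 (standard error 0.11, unadjusted p = 0.0950, adjusted p = 0.733 from edgeR), and without WT R4 it was -0.07.

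**Figure D3:**
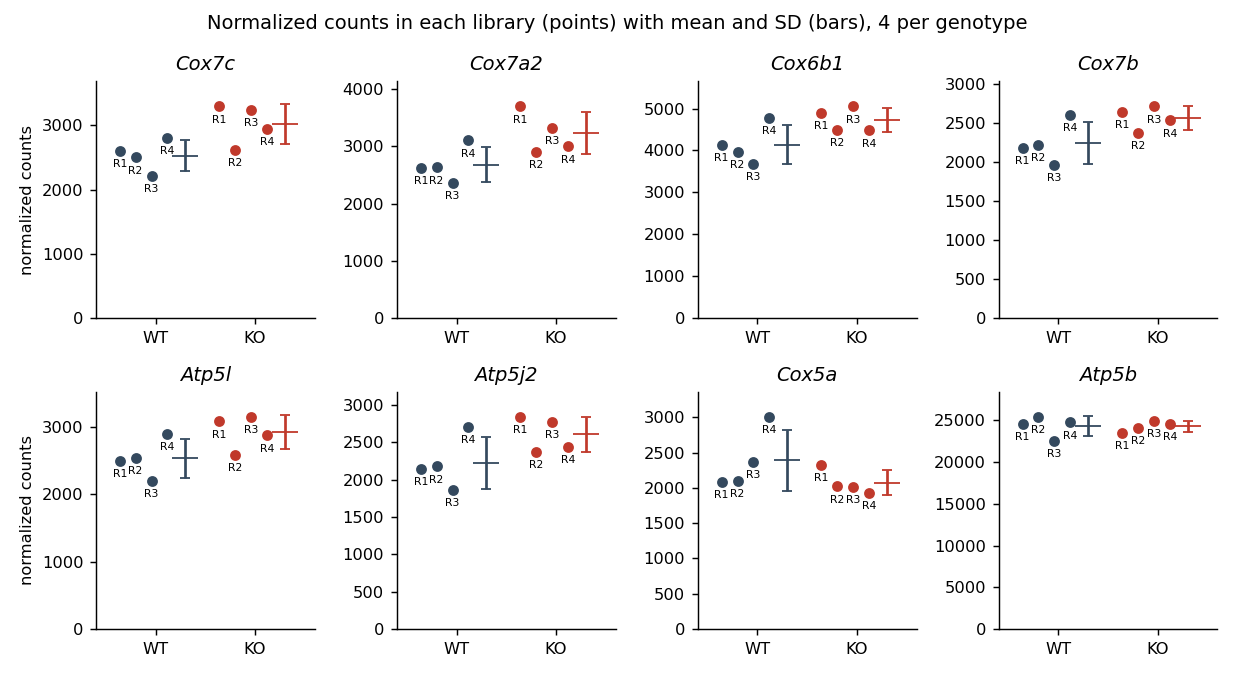
Normalized counts of 8 genes in each library (points labelled R1 to R4) with the mean and SD of each genotype (bars, 4 libraries each), on axes that start at 0. WT R4 reaches into the KO range for the 6 genes with an unadjusted p under 0.05, WT R3 is the lowest library for those genes and for Atp5b, and Cox5a shows the reverse order of genotypes.

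Ratios of 2 members within a library do not depend on how libraries are scaled. For the pair with the widest contrast among those whose libraries did not overlap, picked after the values were seen and therefore given without a test, Cox7a2 counts were 156 ± 9.07% of Cox5a counts in KO and 114 ± 13.9% in WT. The KO libraries ran from 143.6% to 165.1% and the WT libraries from 100.1% to 126.0%. Of the 666 pairs of members, 50 had ratios that did not overlap between genotypes (7.51%), against 4.4% of all 80625951 pairs of genes tested. Cox5a was in 16 of these 50 pairs, each time lower in KO relative to its partner, and Atp5g3 was in 11. Pairs that share a gene are not independent of each other.

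The tissue isoforms and the assembly factors gave no unadjusted p under 0.05. Among the isoforms Cox6b2 had the smallest p, with 24.3, 9.12, 6.81 and 15.5 normalized counts in KO R1 to R4 and 13.4, 12.3, 9.25 and 33.8 in WT R1 to R4, values too low and spread to separate genotypes (log2 fold change -0.26, standard error 0.49, adjusted p = 0.935 from edgeR). Among 6 assembly factors, 2 had estimates above 0 and the median log2 fold change was -0.02. Cox18, which helps insert the core subunit COX2 into the membrane, had 241, 227, 186 and 187 normalized counts in KO R1 to R4 and 238, 206, 236 and 242 in WT R1 to R4. KO R3 and R4 lay below all WT libraries, and KO R1 and R2 among them (log2 fold change -0.14, standard error 0.11, adjusted p = 0.827 from edgeR). The heme synthesis enzymes Cox10 and Cox15 had log2 fold changes of -0.02 and -0.05, the copper factors Cox11, Cox17 and Cox19 had -0.01, 0.08 and 0.05. Cox7a2l, a factor that joins complexes III and IV into supercomplexes, had 1678, 1482, 1543 and 1472 normalized counts in KO R1 to R4 and 1406, 1511, 1400.5 and 1529 in WT R1 to R4, overlapping ranges (log2 fold change 0.08, standard error 0.06, adjusted p = 0.817 from edgeR).

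The ATP synthase genes were grouped by position in the enzyme, and the groups were not tested against each other. The 5 genes of the F1 head showed a median log2 fold change of 0.04, and its alpha and beta subunits lay close to 0. Atp5b gave 24280.5 ± 609 normalized counts in KO and 24351 ± 1217 in WT, and Atp5a1 gave 16937 ± 387 and 16492 ± 726. Together these 2 genes took 0.249 ± 0.00469% of all counts in KO and 0.248 ± 0.0117% in WT. The sign of the Atp5b estimate, which was 0.00 to 2 decimals, changed with the scaling. Atp5c1, the central gamma subunit, had the smallest p of the head, with 6519, 6040.5, 6308 and 6444 normalized counts in KO R1 to R4 and 5908, 6058, 5564 and 6211 in WT R1 to R4. KO R1, R3 and R4 were above every WT library (log2 fold change 0.09, standard error 0.05, adjusted p = 0.741 from edgeR).

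The 3 membrane subunits showed a median log2 fold change of 0.21. Atp5l, the g subunit at the dimer interface on chromosome 9 (44721333 to 44728825), had 3083, 2585, 3145 and 2875 normalized counts in KO R1 to R4 and 2492, 2543, 2194 and 2897 in WT R1 to R4. WT R4 lay above KO R2 and R4, and the other WT libraries below all KO libraries. The log2 fold change was 0.21 (standard error 0.09, unadjusted p = 0.0337, adjusted p = 0.631 from edgeR). Near-identical copies cover 92.6% of its transcript, so its counts are uncertain. Atp5j2, the f subunit on chromosome 5 (145944567 to 145952931), had 2839, 2373, 2779 and 2439 in KO R1 to R4 and 2148, 2180.2, 1862 and 2709 in WT R1 to R4, in the same order (log2 fold change 0.23, standard error 0.10, unadjusted p = 0.0471, adjusted p = 0.646 from edgeR). Atp5k, the e subunit, had a log2 fold change of 0.21 and an unadjusted p of 0.0836 (adjusted p = 0.712 from edgeR).

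The 3 peripheral stalk genes all had estimates above 0, with Atp5h, the d subunit, at 3851, 3305, 3621 and 3491 normalized counts in KO R1 to R4 and 3412, 3301, 2998 and 3353 in WT R1 to R4. Only KO R2 was below the highest WT library (log2 fold change 0.13, standard error 0.06, adjusted p = 0.679 from edgeR), and 80.6% of this transcript has near-identical copies. In the c ring, Atp5g2 had 2482, 2045, 2413 and 2124 in KO R1 to R4 and 2063, 2108, 1930.2 and 2096 in WT R1 to R4, with KO R2 inside the WT range (log2 fold change 0.15, standard error 0.07, adjusted p = 0.664 from edgeR). Atp5g1 and Atp5g3 gave 0.03 and -0.02. Relative to Atp5b in the same library, Atp5l counts were 12.0 ± 1.06% in KO and 10.4 ± 0.887% in WT, and WT R4 (11.7%) lay above KO R2 (10.7%).

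Members were taken by symbol, and apart from the assembly factors and Cox7a2l, 3 of them are not parts of either enzyme. Cox4nb is the older name of Emc8, a gene of the endoplasmic reticulum membrane complex that lies head to head with Cox4i1 on chromosome 8. It had 393, 354, 336 and 327 normalized counts in KO R1 to R4 and 378, 412, 408 and 346 in WT R1 to R4, with overlap (log2 fold change -0.14, standard error 0.09, adjusted p = 0.781 from edgeR). Atp5s (Dmac2l) had 135, 128, 134 and 148 in KO R1 to R4 and 120.2, 109.5, 106 and 147 in WT R1 to R4, where WT R4 alone reached the KO range (log2 fold change 0.19, standard error 0.13, adjusted p = 0.795 from edgeR). Atp5sl (Dmac2) had a log2 fold change of -0.02.

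Nuclear genes of both enzymes under other symbols came from a list, of which 20 complex IV genes and 7 ATP synthase genes were tested. Of the 20 complex IV genes, 12 had estimates above 0, against 45.6% of all genes tested. An unadjusted p under 0.05 was reached by 2, both higher in KO, against 4.51% of all genes. These were Ndufa4, a complex IV subunit despite its name (log2 fold change 0.25, unadjusted p = 0.0299, adjusted p = 0.629 from edgeR), and the assembly factor Coa6, listed as 1810063B05Rik (0.30, unadjusted p = 0.0474, adjusted p = 0.646 from edgeR). Of the 7 ATP synthase genes, 5 had estimates above 0. Among them were the small membrane subunits Usmg5 (0.22, unadjusted p = 0.0468, adjusted p = 0.646 from edgeR) and 2010107E04Rik (0.22, unadjusted p = 0.0360, adjusted p = 0.631 from edgeR). Neither list was tested against the shares of all genes.

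Of 4 mitochondrially encoded partners tested, mt-Co1 and mt-Atp6 had every KO library above every WT library, against 2.64% of all genes tested. The far lower counts of mt-Co2 and mt-Co3 overlapped. mt-Co1, the catalytic core of complex IV, had 128703, 115589, 128745 and 122962 normalized counts in KO R1 to R4 and 106687, 111125, 93621 and 107639 in WT R1 to R4. Every KO library lay above every WT library (log2 fold change 0.24, standard error 0.07, unadjusted p = 0.00378, adjusted p = 0.440 from edgeR). mt-Atp6, the proton channel subunit of ATP synthase, lay between 83220.0 and 100040.0 in KO and between 62257 and 79015 in WT (log2 fold change 0.32, standard error 0.09, unadjusted p = 0.00305, adjusted p = 0.440 from edgeR). DESeq2 on the same genes put both past an adjusted p of 0.05, with 0.0454 for mt-Co1 and 0.0425 for mt-Atp6. Over all 12699 genes tested, DESeq2 put 70 past that threshold and edgeR 9. mt-Co2 and mt-Co3 had 43.7 ± 14.6 and 241 ± 24.2 normalized counts in KO, and 47.6 ± 8.52 and 230 ± 40.5 in WT, far below mt-Co1, and gave no difference past an unadjusted p of 0.05. Whether counts this low measure the level of these transcripts was not tested.

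To follow groups of members from library to library, each gene was centred on its mean over the 8 libraries on the log2 scale, and the median over a group was taken in each library. For the 10 ubiquitous complex IV subunits this median deviation was 0.16, -0.01, 0.11 and 0.03 in KO R1 to R4 and -0.09, -0.09, -0.23 and 0.10 in WT R1 to R4, or 0.07 ± 0.08 in KO and -0.08 ± 0.14 in WT. For the 3 membrane subunits of ATP synthase it was 0.25, -0.05, 0.22 and 0.03 in KO and -0.13, -0.13, -0.34 and 0.18 in WT. In both groups WT R3 was lowest and WT R4 lay above KO R2 and R4. The 6 assembly factors had another order, with 0.09, 0.00, 0.01 and -0.05 in KO R1 to R4 and 0.01, -0.05, 0.05 and 0.05 in WT R1 to R4, and the means of both genotypes were 0.01. Cox5a, with its highest count in WT R4 and its lowest in KO R4, did not follow the other subunits either. The 36 tested complex I subunits (Nduf genes) had the order of the complex IV subunits, with 0.14, -0.04, 0.12 and 0.03 in KO and -0.06, -0.06, -0.18 and 0.09 in WT, and 31 of them had estimates above 0. For the 76 tested cytosolic ribosomal protein genes, 75 had estimates above 0 and the median log2 fold change was 0.16. Over all genes tested the share above 0 was 45.6%. At an unadjusted p under 0.05, 8 of the 36 complex I subunits and 39 of the 76 ribosomal protein genes were higher in KO. For the members it was 6 of 37, and over all genes tested 4.51%.

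**Figure D4:**
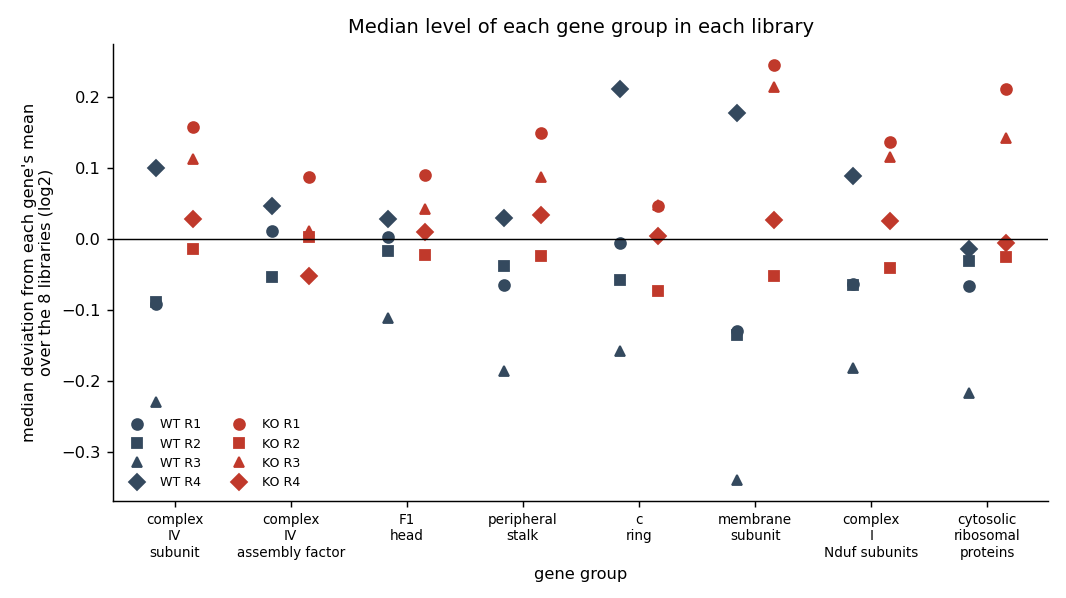
Median log2 deviation of each gene group from its genes' means, 1 point per library (colour for genotype, shape for library number). WT R3 (-0.23) and WT R4 (0.10) mark the ends of the WT range for the complex IV subunits, and KO R1 (0.16) and KO R2 (-0.01) those of the KO range.

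The counts of members past the thresholds changed with the library left out, and so did those of all genes. Over all genes, 540 passed both thresholds in either direction in the full fit, 456 without KO R1, 693 without KO R2, 470 without KO R3 and 480 without KO R4. The count was 498, 625, 426 and 847 without WT R1, R2, R3 and R4, with 12638 to 12943 genes tested in these fits. Without KO R1, the library with the meningeal markers, 0 Cox genes passed both thresholds in place of 2, 2 had an unadjusted p under 0.05 in place of 4, and 0 Atp5 genes in place of 2. Without WT R3 the same counts were 0, 2 and 0, without KO R3 they were 1, 2 and 0, without KO R4 they were 2, 4 and 2, without KO R2 they were 3, 5 and 6 and without WT R4 they were 5, 6 and 8. Without WT R1, and without WT R2, the Cox counts were 3 and 3 and the Atp5 count was 0. The Cox median lay between 0.02 and 0.12 and the Atp5 median between 0.07 and 0.13 over these 8 fits. The part of the meningeal cells in the differences was not tested beyond leaving out KO R1. Endothelial markers (4 of 4 with estimates above 0) summed to 1972 to 3021 normalized counts in KO and 1792 to 2097 in WT, and pericyte markers (5 of 5) to 1495 to 2350 in KO and 1612 to 1725 in WT, with KO R1 highest for both. Red blood cell markers (2 of 3 tested above 0, and Hbb-bh1 at 0) summed to 2884, 4419.8, 1275 and 537 in KO R1 to R4 and to 507 to 1239 in WT, so KO R1, R2 and R3 lay above the WT libraries. Progenitor markers (1 of 4 above 0) summed to 1269 to 1814 in KO and 1231 to 2142 in WT. Neurod6, a marker of cortical projection neurons, lay between 8175 and 10463 in KO and between 5608 and 9827 in WT, with WT R4 lowest. Of the other cortical neuron markers given here, Tbr1 and Emx1 had estimates above 0 (0.09 and 0.10 on the log2 scale), and Bcl11b was at -0.30 (unadjusted p = 0.00159, adjusted p = 0.345 from edgeR), with every KO library below every WT library. Interneuron markers (0 of 5 above 0) summed to 2323 to 2596 in KO and 2486 to 3096 in WT, with overlap and with WT R4 highest. The part of these cell types in the members' differences was not tested.

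Transcript length moved with the difference between genotypes over all genes, and most members are short. Of the 37 members, 25 have a median coding transcript of at most 1000 bp. Among the 1579 tested genes of that length, the median log2 fold change was 0.04, 60.7% had an estimate above 0 and 11.1% were higher in KO at an unadjusted p under 0.05. The median was 0.00 for genes of over 1000 and up to 2000 bp, -0.02 up to 4000 bp and -0.03 beyond that, where 37.2% had estimates above 0. By summed exon length the class of at most 1000 bp held 377 tested genes, 13 of them members. Its median log2 fold change was 0.11, above both family medians, and 74.8% had estimates above 0. When the trend of each library with transcript length was removed, a setting added after the data were seen, the Cox median went from 0.05 to -0.0041 and the Atp5 median from 0.09 to 0.06. With the summed exon length in its place the medians were -0.03 and 0.06. The ubiquitous complex IV subunits went from 0.17 to 0.10 and 0.03 in these 2 fits, and the membrane subunits from 0.21 to 0.13 and 0.09. Cox7c kept 0.18 and 0.20, Cox7a2 kept 0.23 and 0.17, and Cox5a went to -0.25 and -0.31. Whether length itself or something that goes with it in these libraries sets the trend was not tested.

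**Figure D5:**
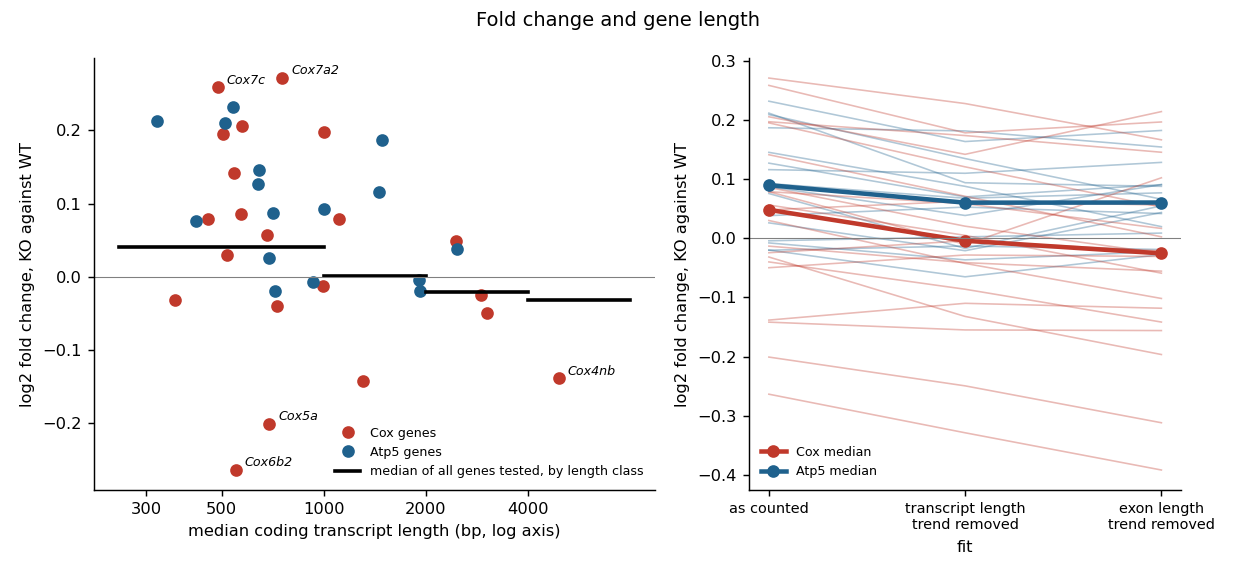
Left, log2 fold change of each member against its median coding transcript length (log axis), with the median of all tested genes in 4 length classes as black bars. Right, the same estimates as counted and after the trend with transcript length or exon length was removed, with thick lines for family medians: Cox from 0.05 to -0.03 and Atp5 from 0.09 to 0.06.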

How the data were processed

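Libraries of polyadenylated cortex RNA (4 Nuak1 KO and 4 WT embryos, stranded kit) were read as pairs. Trimming by the authors used Cutadapt 1.13 and Prinseq, mapping used TopHat2 2.0.13 against mm9 with files handled by SAMtools 0.1.19, and HTSeq-count gave reads per gene. The authors deposited these whole-number counts without normalization, in a table with 0 unused per-library columns. The version of HTSeq-count, its annotation and its strand setting are not given in the sources used here. Reads with several equally good places may have been dropped, which lowers genes with near-identical copies.

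Libraries were grouped by the genotype in the column name. Counts were fitted with edgeR 4.0.16 under R 4.3.3. Genes passed filterByExpr, libraries were scaled by TMM, and p-values of the quasi-likelihood test were adjusted by Benjamini-Hochberg over all 12699 genes. Standard errors were obtained as the absolute log2 fold change over the root of F. The procedure was tested on simulated data. DESeq2 1.42.0 was an alternative, beside other scalings, filters, removal of trends with length or GC content (lowess, span 0.3) and each library left out. Removal of the transcript length trend was chosen after seeing the data. Deviations per library and the count of pairs with separate ratios used a pseudocount of 0.5, and the ratios printed as percentages used none. Positions, lengths and copies (blastn 2.17.0, at least 100 bp at 98% identity) refer to NCBIM37, the assembly behind mm9, and promoters to RefSeq on GRCm38.p6.

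Members and gene lists were chosen with earlier results of these data known, so no list was given a p. Genes given in full are members with an unadjusted p under 0.05, the member with the smallest p in each role group, and Nuak1, and of related genes those with an unadjusted p under 0.05. Cox5a was added after its values were seen. The p-values set the mean difference between genotypes against the spread between single embryos, and shared litters were not modelled. Part of the cortical neuron marker list is not reported here.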

Additional observations from a re-analysis of the deposited data

Results flagged for a closer look

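In each genotype, the highest or lowest of the 4 libraries was compared with the rest by Dixon's criterion. Of 96 groups of 4 examined, 5 stood out, and chance alone gives about 1 in 20, or 4.8. Library KO R1 was high for Cox8a (2334 normalized counts) and Atp5d (2370.2) and low for Atp5g1 (1503). Library WT R4 was high for the testis isoform Cox6b2 (33.8 normalized counts), and WT R2 was low for the assembly factor Cox18 (206). KO R1 is also the library with the meningeal markers.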

How the results depend on the processing

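No paired analysis was possible because no label ties the running numbers of the libraries to an embryo, litter or day. Adjusted p calls stayed at 0 for Cox and Atp5 genes in every fit run. Under the removal of the exon length trend the Cox median turned to -0.025. Cox7c (0.20) and Cox7a2 (0.17) no longer reached 0.25. The 1 Cox gene past both thresholds was then Cox5a, lower in KO (-0.31), and 1 Atp5 gene had an unadjusted p under 0.05. Signs turned for Cox6a1 (-0.025), Cox4i1 (-0.059), Cox5b (-0.10) and Atp5b (0.0089). Under the transcript length trend the Cox median was -0.0041, with 0 Cox genes past both thresholds and 0 Atp5 genes under 0.05, and Cox5b (-0.042), Atp5g1 (-0.021), Cox17 (-0.010), Atp5e (-0.017) and Atp5b (0.0024) turned. The number of Atp5 genes with an unadjusted p under 0.05, 2 as reported, was 1 with upper quartile scaling, 1 with library totals alone and 4 with no filter, and 1 Atp5 gene passed both thresholds when the GC trend was removed. Atp5b turned to 0.0024 with DESeq2 and with its size factors, 0.0055 with upper quartile scaling and with no filter, 0.0034 with at least 10 counts in every library and 0.0054 with the GC trend removed. Atp5d turned to 0.0023, 0.0022 and 0.00019 with upper quartile scaling, no filter and at least 10 counts, and Cox11 to 0.0020 with the GC trend removed. With each library left out, Cox genes past both thresholds numbered 0 to 5, Cox genes under 0.05 2 to 6 and Cox genes higher in KO 12 to 17, and Atp5 genes 0 to 4, 0 to 8 and 11 to 16. Medians were 0.02 to 0.12 for Cox and 0.07 to 0.13 for Atp5. Signs of 11 genes turned in at least 1 of these fits, whose ranges were -0.59 to 0.20 for Cox6b2, -0.21 to 0.25 for Cox7a1, -0.18 to 0.18 for Cox4i2, -0.12 to 0.087 for Cox11, -0.094 to 0.081 for Cox10, -0.014 to 0.12 for Cox5b, -0.068 to 0.064 for Atp5g3, -0.059 to 0.033 for Atp5sl, -0.015 to 0.11 for Atp5g1, -0.033 to 0.019 for Atp5b and -0.036 to 0.057 for Atp5d. The causes of these changes were not tested. All genes past an adjusted p of 0.05 numbered 9 as reported, 70 with DESeq2, 8 to 13 in the other edgeR settings and 2 to 11 with a library left out. Past both thresholds lay 540 genes as reported and 426 to 847 with a library left out.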
